A study of Mus musculus with 20 samples.

Results

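Embryonic stem (ES) cells and extraembryonic endoderm (XEN) cells, which the study used as the starting points of conversions in both directions, were compared across all genes by single-cell RNA sequencing (scRNA-seq). The members were the 2 libraries titled ES, 0h and the 2 titled XEN, Day 0, of 20 libraries in all, and every cell with at least 500 genes was kept. This gave 30012 of the 113288 such cells of the series: 7669 and 9246 ES cells and 6942 and 6155 XEN cells in replicates 1 and 2. The ES cells were of 1 line, iGata4-Gata6-Venus ES, with 1 Col1A1 allele carrying doxycycline-inducible Gata4, 1 Rosa26 allele carrying the M2rtTA transactivator and 1 Gata6 allele carrying an H2B-Venus reporter. They were grown on gelatin in serum and LIF, without doxycycline. The XEN cells were of 1 line, 3F-4 XEN, derived from blastocysts under trophoblast stem cell conditions and homozygous for an inducible Oct4, Klf4, Sox2 and mCherry cassette at Col1A1, for M2rtTA at Rosa26 and for an Oct4-GFP transgene. They had been kept for 7 days on mouse embryonic fibroblast feeders in reprogramming medium, which is serum and LIF with ascorbic acid and a GSK3β inhibitor, also without doxycycline. The M2rtTA transgene was thus common to both lines. The 2 libraries of each group were technical duplicates, so n = 2 covers technical spread only. Line, genotype, medium, feeders and cell type differed together in this comparison and cannot be told apart.

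In the mouse blastocyst, the inner cell mass separates into epiblast (EPI), from which ES cells are derived, and primitive endoderm (PrE), from which XEN cells are derived. EPI is held in the pluripotent state by a circuit around Oct4 (Pou5f1), Sox2 and Nanog, while PrE is specified by GATA and SOX17 factors downstream of FGF signalling, the ligand FGF4 coming from EPI. PrE then gives rise to parietal endoderm, which lays down the thick basement membrane called Reichert's membrane, and to visceral endoderm, which takes up and secretes proteins around the embryo.

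The 4 libraries held between 108205840 and 138204184 UMIs (unique molecular identifiers, each standing for 1 captured transcript molecule), and the median cell held 13140.0 to 18976.0 UMIs. Library pairs shared 68 to 104 cell barcodes, at most 1.41% of the smaller library. Between duplicates, log2 ratios had an SD over genes of 0.293 in ES and 0.408 in XEN. Across the cell clusters assigned by the authors, the summed level of 8 pluripotency markers was at most 8.91 CPM (UMIs per 1000000 UMIs) in all 22 clusters of XEN, and at least 3419 CPM in 26 of the 27 clusters of ES. The summed level of 9 endoderm markers was 576 to 7687 CPM in the XEN clusters and at most 33.7 CPM in the same 26 ES clusters. The remaining ES cluster, 289 cells or 3.77% of ES replicate 1, had 598 CPM of pluripotency markers, 237 CPM of fibroblast markers and 222 CPM of endoderm markers. Its level of differentiation markers, Stmn2 among them, was 1002 CPM, where the other ES clusters had 183 to 978 CPM. The paper removed a cluster of spontaneously differentiating cells from its starting ES samples, and whether it was this one was not tested. Values without this cluster are given where a call was lost without it. They are also given where, among genes examined cell by cell, the share of ES replicate 1 cells with a UMI fell by more than 1.5 times. The XEN cells came from feeder cultures. The 15 fibroblast markers summed to 6.46 and 10.0 CPM in XEN, with at most 32.0 CPM in a XEN cluster, and to 24.4 and 8.39 CPM in ES. Col3a1, Thy1 and Twist2 had no UMI in XEN and Col1a1 a single one, so the XEN sums came almost wholly from other members of the list.

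ES and XEN cells differed in a large part of the transcriptome. Of 17063 genes tested, 7189 (42.1%) were called different, which means an adjusted p under 0.05 in edgeR's quasi-likelihood test together with a difference of 1 or more log2 units. Of these, 3862 (22.6%) were higher in ES and 3327 (19.5%) were lower in ES, that is higher in XEN, and the median log2 fold change (ES over XEN) of all genes tested was 0.09. The libraries of ES and XEN did not overlap in 80.0% of all genes tested, so a lack of overlap alone says little about a gene. Among the 3083 genes with at least 50 CPM (here and below scaled by TMM factors) in ES or XEN, the balance was tilted towards XEN, with 377 called higher in ES and 800 lower. At this level, genes present in 1 cell type and nearly absent from the other were similarly frequent on either side: 36 genes had at least 50 CPM in ES and under 0.5 CPM in XEN, and 35 had the opposite pattern. Without a limit on level, such genes were more frequent on the ES side. Calls of at least 5 log2 units numbered 1294 higher in ES and 473 lower. Of the genes tested, 871 had no UMI in XEN and 343 had none in ES.

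**Figure D1:**
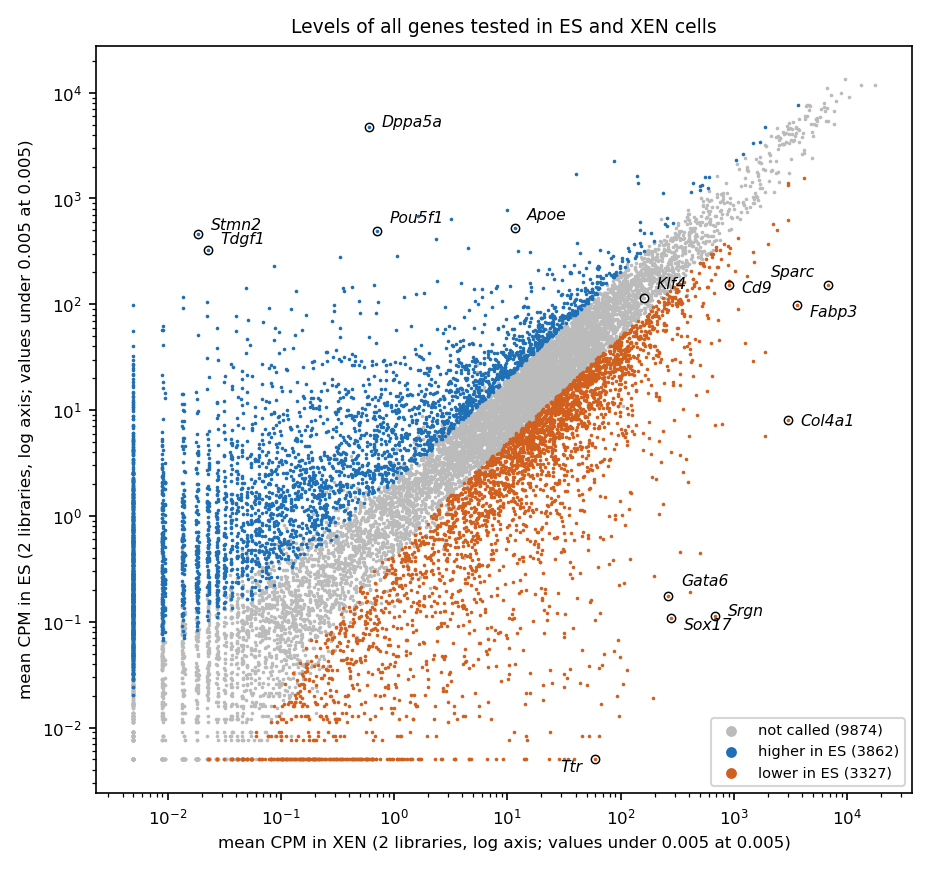
Mean CPM of each of the 17063 genes tested in XEN (x axis) and ES (y axis), 2 libraries each, on log axes; colours show the call and circles mark named genes. Dppa5a, Stmn2, Tdgf1 and Pou5f1 lie far above the diagonal, Sparc, Fabp3, Col4a1, Srgn, Sox17, Gata6 and Ttr far below it, and Klf4 lies close to it among genes that were not called.

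The genes with the largest differences at 50 CPM or more were of mixed function. On the ES side, they were Stmn2, Platr10, Tdgf1, Gdf3, Dppa5a, Ooep, Wfdc2, Fgf4, Esrrb, Laptm5, Trh, Urah, Pla2g1b, Fxyd6 and Sox2. Of these, Stmn2, a microtubule-destabilizing protein best known from neurons, had 513 and 403 CPM in the ES libraries and 0.0284 and 0.00893 CPM in XEN. Trh, the precursor of thyrotropin-releasing hormone, had 120.0 and 91.6 CPM against 0 and 0.0447 CPM, and the lysosomal membrane protein gene Laptm5 57.5 and 57.0 CPM against 1 UMI in each XEN library. These 15 genes were chosen for the size of this difference.

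On the XEN side, the 15 genes were Ttr, Gkn2, Pla2g12b, Stra6, Srgn, Aqp8, Gkn1, Capn6, Bmper, S100g, Sox17, Fxyd3, Pdgfra, Hkdc1 and Foxa2. The proteoglycan gene Srgn had 619 and 756 CPM in XEN and 0.164 and 0.0606 CPM in ES. Fxyd3, a regulator of the sodium pump, had 323 and 492 CPM against 0.183 and 0.197 CPM. The gastrokine genes Gkn2 and Gkn1, known for secreted proteins of the stomach lining, had 144 and 241 CPM and 44.6 and 142 CPM in XEN, and at most 5 UMIs each in ES. These 15 genes were chosen in the same way, and the duplicates of XEN differed about 3-fold for Gkn1.

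Most pluripotency transcription factor genes were higher in ES and none was called lower. Of 26 pluripotency transcription factors tested, 19 were called higher in ES and 7 were not called, where 22.6% of all genes were called higher, with a median log2 fold change of 5.77 against 0.09 for all genes. Pou5f1, the central regulator of the pluripotent state (chromosome 17, 35506018 to 35510772, plus strand, GRCm38), had 530.0 and 452 CPM in ES and 0.644 and 0.759 CPM in XEN. Its log2 fold change was 9.45 ± 0.98 (approximate SE, edgeR, adjusted p = 3.86e-06). Its partner Sox2 had 225 and 232 CPM against 0.0663 and 0.107 CPM (11.33 ± 1.22, edgeR, adjusted p = 5.15e-06). The groups did not overlap for either gene and the duplicates lay close together, most of all in ES.

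Nanog, which sustains pluripotency in the absence of differentiation, had 81.2 and 74.2 CPM in ES and 0 and 0.0804 CPM in XEN (10.83 ± 1.30, edgeR, adjusted p = 1.36e-05). Zfp42 (Rex1), a marker of naive ES cells, had 785 and 589 CPM against 1.88 and 1.36 CPM, and Utf1, a chromatin-bound pluripotency factor, 667 and 624 CPM against 2.81 and 3.48 CPM. The orphan nuclear receptor Esrrb had 62.0 and 53.2 CPM in ES and only 2 UMIs in XEN, a ratio of 6222 (95% counting interval 1722 to 51385). Foxd3 had no UMI in either XEN library and 11.3 and 15.9 CPM in ES, so it was at least 1002-fold higher in ES, taking 3 UMIs over the group as the floor. In XEN, Nanog, Esrrb and Foxd3 were thus at or near the floor, whereas Zfp42 and Utf1 were low but above it.

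Factors of neighbouring pluripotent states were also present in ES. Otx2 and Pou3f1 (Oct6), which mark the transition to the post-implantation epiblast, had 9.91 and 11.5 CPM and 16.5 and 42.8 CPM in ES against 0.00947 and 0 CPM and 0.426 and 1.19 CPM in XEN. The LIF-dependent factor gene Tfcp2l1 had 156 and 141 CPM against 10.4 and 10.8 CPM (3.80 ± 0.38). Klf5, which also acts in trophectoderm, had the smallest fold of the called members, with 208 and 239 CPM in ES and 79.3 and 49.3 CPM in XEN (1.80 ± 0.55, edgeR, adjusted p = 0.0147), and it was not called without ES replicate 2 or XEN replicate 2 (edgeR, adjusted p = 0.0676 and 0.118). Pou3f1 was more than 2-fold higher in ES replicate 2 than in ES replicate 1, but all ES values of these genes were above all XEN values.

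The exceptions were factors that XEN cells shared with ES cells. Klf4, a member of the reprogramming cocktail, had 113 and 118 CPM in ES and 173 and 152 CPM in XEN (-0.49 ± 0.27, edgeR, adjusted p = 0.143). Both XEN libraries were above both ES libraries, but the difference did not pass the test. These counts cannot tell RNA of the uninduced cassette in the XEN line from RNA of the endogenous genes. Sall4, a zinc finger factor of both EPI and PrE, had 167 and 199 CPM against 201 and 182 CPM (-0.07 ± 0.19), and the libraries overlapped. The members not called also included Tbx3 (69.6 and 55.6 CPM in ES and 43.4 and 42.4 CPM in XEN), which fell short of the fold required.

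The 26 pluripotency-associated effectors are a list of secreted, surface and maternal-effect proteins typical of ES cells. Of them, 22 were called higher in ES and 2 lower, where 22.6% and 19.5% of all genes were. Their median log2 fold change was 8.48. Dppa5a, an RNA-binding protein of pluripotent cells, was the most abundant of them, with 5250.2 and 4245 CPM in ES and 0.530 and 0.670 CPM in XEN (12.95 ± 0.58, edgeR, adjusted p = 1.09e-08). Tdgf1 (Cripto), the co-receptor of Nodal, had 317 and 332 CPM against 0.0189 and 0.0268 CPM. Tcl1, an AKT co-activator, had 36.4 and 44.9 CPM in ES and no UMI in XEN, and was thus at least 2978-fold higher in ES. Dppa3 (Stella), which guards maternal methylation, was much lower in level, with 20.8 and 15.8 CPM in ES and a single UMI in XEN.

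The members on the XEN side of this list were the tetraspanin Cd9 and the F-box protein gene Fbxo15. Cd9 had 146 and 160.2 CPM in ES and 769.5 and 1044 CPM in XEN (-2.57 ± 0.42, edgeR, adjusted p = 1.77e-04), so that this widely used ES cell surface marker was several times higher in XEN. Fbxo15 had 13.2 and 11.3 CPM against 49.2 and 34.6 CPM (-1.77 ± 0.37). The let-7 inhibitor Lin28a was not called, with 70.5 and 83.7 CPM in ES and 68.6 and 56.9 CPM in XEN (0.30 ± 0.29).

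Nanog has Dppa3, Gdf3 and Apobec1 as near neighbours. They lie in 1 stretch of chromosome 6 (GRCm38), Apobec1 from 122577792 to 122602444, Gdf3 from 122605403 to 122610087, Dppa3 from 122626410 to 122630272 and Nanog from 122707489 to 122714633. All of these genes were called higher in ES: Gdf3, a TGF-beta family ligand, had 53.4 and 58.3 CPM against 1 UMI in XEN, and the cytidine deaminase gene Apobec1 1.96 and 1.69 CPM against 1 UMI in each XEN library.

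**Figure D2:**
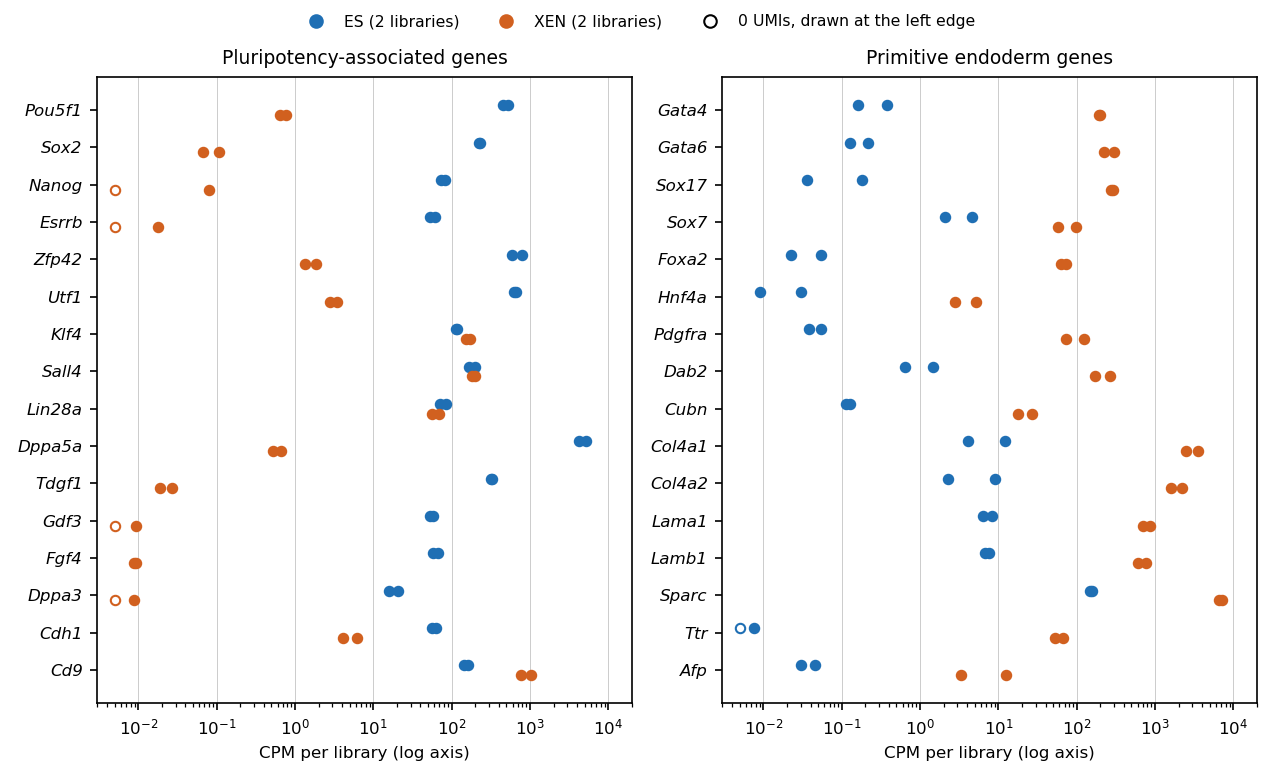
CPM of pluripotency-associated genes (left) and primitive endoderm genes (right) in each of the 2 ES (blue) and 2 XEN (orange) libraries, on a log axis; open circles stand for libraries with 0 UMIs. Most genes are 100-fold or more apart between the cell types and close between duplicates, whereas Klf4, Sall4 and Lin28a have similar levels in both and Cd9 is higher in XEN.

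The PrE program was on the XEN side. Of 24 PrE transcription factors tested, 16 were called lower in ES and 4 higher, where 19.5% and 22.6% of all genes were, with a median log2 fold change of -4.37. Gata6, the earliest PrE factor, had 302 and 226 CPM in XEN and 0.219 and 0.129 CPM in ES (-10.57 ± 1.11, edgeR, adjusted p = 4.01e-06). Gata4 had 201 and 195 CPM against 0.384 and 0.159 CPM (-9.52 ± 0.94, edgeR, adjusted p = 2.40e-06). The inducible Gata4 allele of the ES line was thus not accompanied by more Gata4 UMIs than these, although whether the transgene's 3′ end would be counted as Gata4 was not tested. Sox17 had 286 and 276 CPM in XEN and 0.0365 and 0.182 CPM in ES (-11.26 ± 1.5). In each of these 3 genes, the lower XEN library was more than 500-fold above the higher ES library.

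Among the other factors, Foxa2 had 72.6 and 63.7 CPM in XEN and 0.0548 and 0.0227 CPM in ES, and Sox7, a close relative of Sox17, 97.9 and 58.5 CPM against 2.09 and 4.59 CPM (-4.55 ± 0.60, edgeR, adjusted p = 2.98e-05). Cited1, a transcriptional co-activator, had 235 and 320.5 CPM against 5.18 and 2.79 CPM (-6.12 ± 1.01), and Foxq1 85.3 and 108 CPM against 0.292 and 0.152 CPM. Sox7 and Cited1 were thus still detected at a few CPM in ES, unlike Foxa2. Tfec, a relative of the lysosomal regulator TFEB, had 28.9 and 27.8 CPM in XEN and no UMI in ES, so it was at least 2282-fold lower in ES. The liver-enriched factor gene Hnf4a had 5.13 and 2.76 CPM in XEN and under 0.1 CPM in ES. The 4 members on the ES side, Mixl1, Prdm1, Sall3 and Eomes, are known for other lineages as well, and Sall3 was the only one of them above 5 CPM (8.90 and 10.1 CPM in ES). Mixl1 was not called without either XEN library (edgeR, adjusted p = 0.0643 and 0.0691). Foxa1, Hhex, Tbx4 and Tbx20 were not called, each under 10 CPM in every library.

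Of the 38 gene lists, basement membrane genes had the largest absolute difference in summed CPM. The 24 members summed to 15763 and 13913 CPM in XEN and to 496 and 537 CPM in ES. By number, 12 were called lower in ES (19.5% of all genes were), 3 higher (22.6% of all genes) and 9 were not called, so the median log2 fold change was only -0.68. Sparc, a collagen-binding matrix protein, had 6515 and 7106 CPM in XEN against 154 and 149.5 CPM in ES (-5.49 ± 0.35, edgeR, adjusted p = 5.28e-08). Col4a1 and Col4a2, the chains of the common type IV collagen, had 3509 and 2514 CPM and 2182 and 1582 CPM in XEN. In ES they had 12.2 and 4.09 CPM and 9.07 and 2.24 CPM. Each was lower in replicate 2 than in replicate 1, the library that held the small cluster described above. Without this cluster, the share of ES replicate 1 cells with a UMI after thinning to 5000 UMIs was 1.29% instead of 2.88% for Col4a1 and 0.996% instead of 2.39% for Col4a2, and both genes were still called lower in ES.

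Col4a1 and Col4a2 are transcribed in opposite directions from chromosome 8 (GRCm38), Col4a1 from 11198423 to 11312826 on the minus strand and Col4a2 from 11312805 to 11449287 on the plus strand, and their RefSeq start sites are 21 bases apart. Their log2 fold changes were close, at -8.53 ± 0.63 and -8.38 ± 0.69. The chains of laminin-111 were lower in ES as well: Lama1 had 866 and 693 CPM in XEN and 6.39 and 8.35 CPM in ES (-6.72 ± 1.11), and Lamb1 760.2 and 606 CPM against 7.60 and 6.77 CPM (-6.57 ± 0.43). Lamc1 had 1444 and 1052 CPM against 38.3 and 47.0 CPM, and Nid1, which links laminin to collagen IV, was also called (-2.90 ± 0.44). The exception with the largest fold was Col18a1, the precursor of endostatin, with 67.4 and 89.9 CPM in ES and 0.189 and 0.143 CPM in XEN (8.88 ± 1.00, edgeR, adjusted p = 7.53e-06), and Lama5 and Agrn were also higher in ES.

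The enzymes and chaperones of collagen synthesis were on the XEN side almost without exception. All 27 genes tested for collagen modification and secretory folding were called, 26 of them lower in ES, with a median log2 fold change of -2.01 where 42.1% of all genes were called. The collagen chaperone gene Serpinh1 (HSP47) had 1741 and 1235 CPM in XEN against 39.7 and 18.6 CPM in ES (-5.67 ± 0.47). The prolyl 4-hydroxylase genes P4ha1 and P4ha2 had 379 and 335 CPM and 236 and 171 CPM in XEN against 9.46 and 11 CPM and 2.16 and 2.26 CPM in ES. P3h2, which hydroxylates the 3 position of proline in type IV collagen, had 58.0 and 60.2 CPM against 0.100 and 0.106 CPM (-9.14 ± 0.59, edgeR, adjusted p = 6.51e-08). General folding factors of the endoplasmic reticulum, such as Hspa5 and Calr, were called lower in ES with smaller folds (-1.98 ± 0.33 and -2.43 ± 0.34). Fkbp10, a collagen prolyl isomerase, was the 1 member higher in ES. Ascorbic acid, a cofactor of the prolyl hydroxylases, was in the medium of the XEN cells only, and medium and cell type cannot be told apart.

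Markers of parietal endoderm were mostly higher in XEN. Of 22 parietal endoderm markers tested, 15 were called lower in ES and 3 higher, where 19.5% of all genes were called lower and 22.6% higher. The summed level was 4913 and 5530.4 CPM in XEN and 581 and 420.3 CPM in ES. Thbd (thrombomodulin) had 103 and 88.0 CPM in XEN and 0.0730 and 0.0606 CPM in ES, and the PDGF receptor gene Pdgfra, a PrE marker, 124 and 73.0 CPM against 0.0548 and 0.0379 CPM (-11.03 ± 0.54, edgeR, adjusted p = 1.67e-08). The retinol-binding protein receptor gene Stra6 had 71.7 and 57.2 CPM in XEN and 1 UMI in each ES library. The protease gene Plat (tissue plasminogen activator) had 128 and 84.9 CPM against 0.365 and 0.0985 CPM, and Cryab, a small heat shock protein gene and the most abundant member, 1585 and 2183 CPM against 57.3 and 13.5 CPM. Pdgfra and Plat were lower in XEN replicate 2 than in replicate 1 and Cryab higher, differences far smaller than those between the cell types. The serine protease gene Htra1 was on the ES side (13.5 and 23.4 CPM against 0.0663 and 0.214 CPM).

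Visceral endoderm markers were called lower in ES more often than all genes, and higher about as often. Of 25 tested, 12 were called lower in ES, 5 higher and 8 not called, where 19.5% of all genes were called lower and 22.6% higher, with a median of -3.38, or -3.27 with genes absent from a group set at their bound. The transthyretin gene Ttr had 66.3 and 52.9 CPM in XEN and a single UMI in ES, and the alpha-fetoprotein gene Afp 3.34 and 12.7 CPM against 0.0457 and 0.0303 CPM. The calcium-binding protein gene S100g had 83.1 and 144 CPM against 0.0548 and 0.0152 CPM. The apolipoprotein gene Apoe, in contrast, had 517 and 536 CPM in ES and 9.82 and 13.4 CPM in XEN (5.50 ± 0.56, edgeR, adjusted p = 2.74e-06), and the transferrin gene Trf 5.92 and 3.30 CPM against 2 UMIs in XEN. Alb and Fga, genes of liver and late yolk sac, had no UMI in any of the 4 libraries, and Apoa1 (0.813 and 0.659 CPM in ES and 0.133 and 0.366 CPM in XEN) was not called, though it was called higher in ES with the 4 libraries alone (1.5, edgeR, adjusted p = 0.0361).

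Receptors and adaptors of endocytosis, the hallmark of yolk sac endoderm, were called lower in ES in 9 of 15 cases and higher in 3, where 19.5% of all genes were called lower and 22.6% higher. The count of those higher was 0 without either XEN library and 1 without ES replicate 1. The clathrin adaptor gene Dab2 had 263 and 173 CPM in XEN and 1.47 and 0.637 CPM in ES (-7.70 ± 0.58, edgeR, adjusted p = 2.07e-07), and without the small cluster the share of ES replicate 1 cells with a UMI of it, after thinning to 5000 UMIs, was 0.272% instead of 0.592%. Cubn (cubilin), the receptor for albumin and intrinsic factor, had 27.1 and 17.6 CPM against 0.128 and 0.114 CPM. Amn, the partner protein that brings cubilin to the surface, stayed under 2 CPM in all 4 libraries and was called higher in ES (1.10 and 0.493 CPM against 0.142 and 0.143 CPM), so the pair did not follow 1 direction. The call of Amn was lost without ES replicate 1 or either XEN library (edgeR, adjusted p = 0.237, 0.147 and 0.152).

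**Figure D3:**
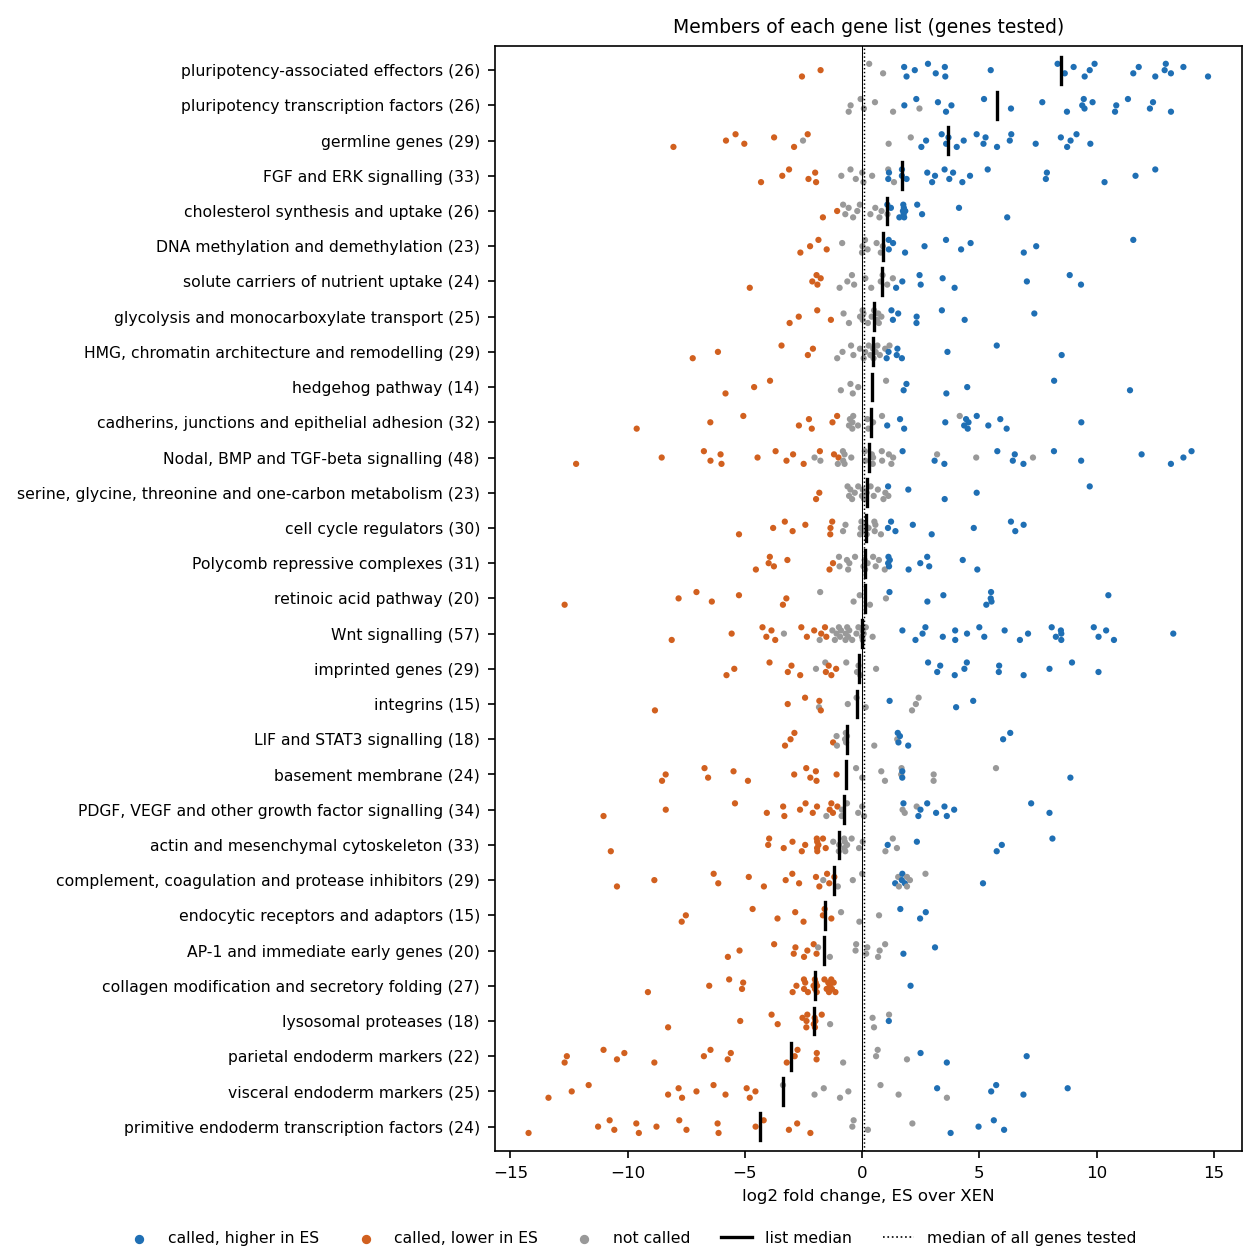
Log2 fold change (ES over XEN) of each tested member of 31 gene lists, sorted by the list median (black bar); colours show the call, the dotted line is the median of all genes tested (0.09), and the number tested is in brackets. Pluripotency lists lie on the right, PrE, parietal and visceral endoderm lists and the collagen and lysosomal lists on the left, and most signalling and chromatin lists spread to both sides.

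Of all genes tested, 22.6% were called higher in ES and 19.5% lower, so calls in both directions within a signalling list are no result about it, and the counts below are to be read against these shares. In FGF and ERK signalling, 19 of 33 genes were called higher in ES and 6 lower, with a median log2 fold change of 1.69. Fgf4, the EPI ligand of PrE specification, had 57.3 and 66.1 CPM in ES and 1 UMI in each XEN library, a ratio of 6754 (95% counting interval 1869 to 55778). Fgf17 had 28.5 and 34.2 CPM in ES against 0 and 0.0447 CPM in XEN. Fgf3, a ligand known from parietal endoderm, was the reverse, with 55.9 and 39.4 CPM in XEN and 2.20 and 2.59 CPM in ES (-4.31 ± 0.87, edgeR, adjusted p = 9.46e-04).

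The FGF receptor genes were also divided. Fgfr1 had 23.6 and 24.2 CPM in ES and 1.66 and 1.6 CPM in XEN (3.88 ± 1.06, edgeR, adjusted p = 0.0075), with adjusted p = 0.0539 and 0.0573 by edgeR without XEN replicate 1 or 2. Fgfr2, which PrE cells are known to carry, had 3.66 and 3.45 CPM in XEN against 0.822 and 0.993 CPM in ES (-1.97 ± 0.36, edgeR, adjusted p = 3.93e-04), and Fgfr3 and Fgfr4 were also called lower in ES (-2.29 ± 0.52 and -3.41 ± 0.49). Fgfr2 stayed below 5 CPM in every library. Of the genes that ERK activity is known to induce, Spry4 and Etv5 were higher in ES, with Spry4 at 38.8 and 53.5 CPM against 3.38 and 4.70 CPM and Etv5 at 77.0 and 100.1 CPM against 3.65 and 5.53 CPM. Dusp4, another such gene, was lower in ES (-2.01 ± 0.41).

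In LIF and STAT3 signalling, 6 of 18 genes were called higher in ES and 4 lower, 55.6% called against 42.1% of all genes. The receptor gene Lifr was higher in XEN, with 129 and 125 CPM against 16.8 and 17.4 CPM in ES (-2.89 ± 0.31, edgeR, adjusted p = 3.93e-06), as were the ligand gene Lif (13.6 and 12.6 CPM against 1.57 and 1.11 CPM) and the kinase gene Jak2. Socs2 and Bcl3, known targets of STAT3, were higher in ES, Socs2 with 129 and 118 CPM in ES against 1.47 and 1.64 CPM and Bcl3 with 28.9 and 28.9 CPM against 0.493 and 0.402 CPM. Neither the co-receptor gene Il6st nor Stat3 itself was called (-0.69 ± 0.31 and -0.73 ± 0.26). Both media contained LIF.

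Among ligand genes of the TGF-beta family, Nodal had 14.5 and 16.9 CPM in ES against 0 and 0.0447 CPM in XEN, its inhibitor genes Lefty1 and Lefty2 had 28.8 and 25.5 CPM and 47.3 and 35.1 CPM against 0.227 and 0.232 CPM and 1 UMI in each XEN library, and Inhbb, an activin subunit, had 23.1 and 26.9 CPM against no UMI. BMP ligand genes were divided: Bmp4 had 86.6 and 85.2 CPM in ES and 0.114 and 0.473 CPM in XEN, while Bmp2 had 0.922 and 0.258 CPM in ES and 44.8 and 32.2 CPM in XEN (-6.04 ± 0.90, edgeR, adjusted p = 8.37e-05). Secreted antagonists of activin and BMP were also found on the XEN side, with Fst (follistatin) at 374 and 288 CPM against 3.07 and 4.40 CPM and Nog (noggin) at 52.3 and 50.2 CPM against 0.730 and 0.227 CPM. Without the small cluster, the share of ES replicate 1 cells with a UMI, after thinning to 5000 UMIs, was 0.0854% instead of 0.324% for Bmp2 and 0.0568% instead of 0.263% for Nog. The BMP target genes Id1 and Id3 were higher in ES (Id1 had 225 and 198 CPM against 11.8 and 25.6 CPM), whereas Id2 was not called (-0.47 ± 0.26). Over the whole list, 13 of 48 genes were called higher in ES and 14 lower, against 22.6% and 19.5% of all genes tested.

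**Figure D4:**
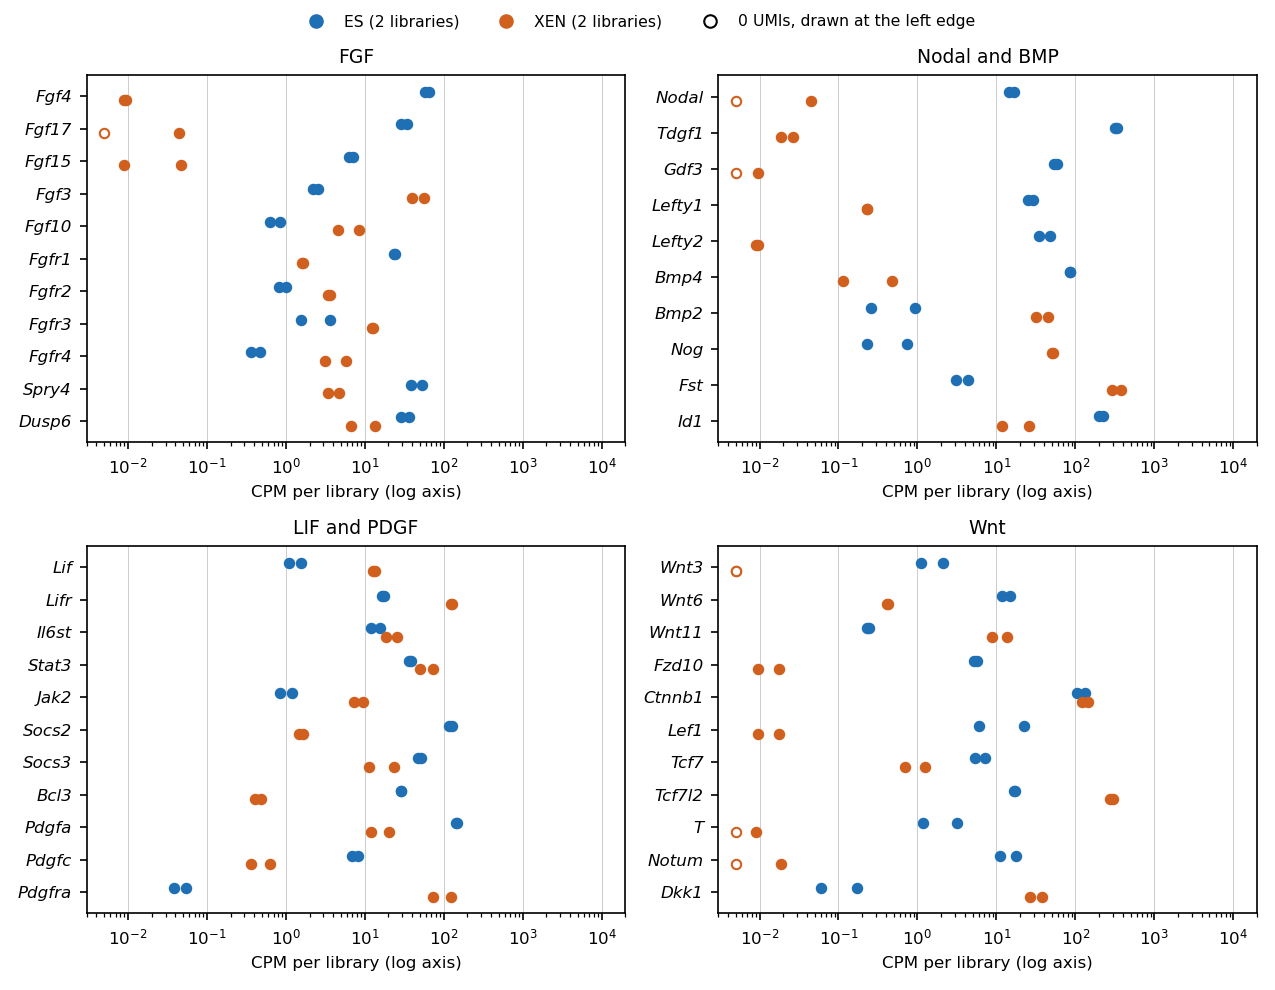
CPM of ligand, receptor, antagonist and target genes of 4 groups of pathways in each of the 2 ES (blue) and 2 XEN (orange) libraries, on a log axis; open circles stand for libraries with 0 UMIs. Fgf4 and Fgfr1, Nodal, Tdgf1 and the Lefty genes, Pdgfa and Lef1 are higher in ES, whereas Fgf3 and Fgfr2 to Fgfr4, Bmp2, Nog and Fst, Lifr, Pdgfra, Tcf7l2 and Dkk1 are higher in XEN.

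Wnt signalling genes included 23 called higher in ES and 12 lower of 57 tested, with a median of -0.01. Members of the TCF family went in opposite directions: Tcf7l2 had 303 and 279 CPM in XEN and 17.4 and 16.9 CPM in ES (-4.09 ± 0.27, edgeR, adjusted p = 7.46e-08), whereas Lef1 had 5.97 and 22.6 CPM in ES and 0.00947 and 0.0179 CPM in XEN and Tcf7 5.39 and 7.16 CPM against 0.691 and 1.24 CPM. The target and feedback genes Notum (11.2 and 17.7 CPM against 2 UMIs in XEN), Axin2 (7.07 and 4.88 CPM against 1.90 and 0.572 CPM) and Cdx1 (18.4 and 10.7 CPM against no UMI) were higher in ES. The antagonist gene Dkk1 had 26.9 and 37.5 CPM in XEN and 0.173 and 0.0606 CPM in ES. The summed level of the list was 1006 and 947 CPM in XEN against 511 and 582 CPM in ES. The GSK3β inhibitor, which activates the pathway, was in the medium of the XEN cells only. Medium and cell type cannot be told apart in these values. The β-catenin gene Ctnnb1 was not called (106 and 132 CPM and 146 and 120.0 CPM).

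A growth factor and its receptor were on opposite sides in 1 case and on the same side in another. Pdgfa, the ligand of PDGFRA, had 147 and 142 CPM in ES and 12.2 and 20.4 CPM in XEN (3.15 ± 0.28, edgeR, adjusted p = 8.21e-07), where Pdgfra was high. The KIT receptor gene had 85.4 and 60.2 CPM in XEN and 4.12 and 4.57 CPM in ES, and the gene of its ligand, Kitl, was also higher in XEN (-3.32 ± 0.42). Flt1, a VEGF receptor, had 61.4 and 70.9 CPM in XEN against 2.36 and 0.728 CPM in ES. Across the growth factor list, 10 of 34 genes were called higher in ES and 14 lower.

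In the retinoic acid pathway, 8 of 20 genes were called higher in ES and 7 lower. The plasma retinol carrier gene Rbp4 had 79.3 and 139.9 CPM in XEN and 1.03 and 0.606 CPM in ES, and Cyp26a1, which degrades retinoic acid, 94.1 and 78.8 CPM against 0.411 and 0.349 CPM. The receptor gene Rarb was higher in XEN (10.2 and 12.2 CPM against 0.155 and 0.106 CPM) and Rarg in ES (57.7 and 67.4 CPM against 1.15 and 1.65 CPM). In the hedgehog pathway, the ligand gene Ihh was on the XEN side (10.7 and 7.74 CPM against 0.137 and 0.182 CPM) and the effector genes Gli1 and Gli2 on the ES side (5.8 and 11 CPM and 15.1 and 18.1 CPM against under 0.05 CPM in XEN). Of 14 genes of that pathway tested, 6 were called higher in ES and 3 lower.

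Different cadherin genes were higher in ES and in XEN. Of 32 genes for cadherins and junctions, 13 were called higher in ES and 8 lower, where 22.6% and 19.5% of all genes were. Cdh1 (E-cadherin) had 56.3 and 62.8 CPM in ES and 4.10 and 6.12 CPM in XEN (3.54 ± 0.42, edgeR, adjusted p = 1.04e-05), while Cdh5 (VE-cadherin) had 46.1 and 45.5 CPM in XEN and 0.0183 and 0.0910 CPM in ES and Cdh6 1.49 and 1.69 CPM against 0.00913 and 0.0227 CPM. The simple-epithelial keratin gene Krt8 was higher in XEN, with 341 and 464 CPM against 62.5 and 24.1 CPM. Among 15 integrin genes, 3 were called higher in ES and 5 lower, 53.3% called against 42.1% of all genes. Itgb1, the partner of the laminin and collagen binding chains, had 339 and 306 CPM in XEN against 63.5 and 55.8 CPM in ES (-2.44 ± 0.43), and its laminin-binding partner gene Itga6 was not called (-0.24 ± 0.33).

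Of 33 genes of the actin and mesenchymal cytoskeleton list, 14 were called lower in ES and 5 higher, where 19.5% and 22.6% of all genes were. With the 4 libraries alone or with no filter on low counts, 3 genes of the list were higher. Its summed level differed between the XEN duplicates as well (6667 and 12814 CPM, against 4072 and 3029 CPM in ES). Tropomyosin 4 (Tpm4) had 760.3 and 719 CPM in XEN and 49.8 and 42.1 CPM in ES, close within each group. The myosin light chain gene Myl3 had 57.7 and 72.3 CPM against 0.0274 and 0.0455 CPM. Cavin1, a coat protein of caveolae, was on the ES side (23.6 and 29.8 CPM against 0.294 and 0.563 CPM).

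Regulators of DNA methylation differed by family member. Tet1 and Tet2, the TET dioxygenases of naive cells, had 143 and 157 CPM and 37.8 and 38.4 CPM in ES against 10.5 and 5.59 CPM and 1.55 and 1.54 CPM in XEN (log2 fold changes of 4.22 ± 0.54 and 4.62 ± 0.25, edgeR, adjusted p = 2.04e-05 and 2.55e-08). Tet3 was the reverse, with 39.9 and 34.0 CPM in XEN and 5.63 and 6.25 CPM in ES (-2.64 ± 0.19, edgeR, adjusted p = 1.36e-07). Dnmt3l, the cofactor of de novo methylation, had 73.5 and 90.5 CPM in ES against 0.521 and 0.857 CPM in XEN. The de novo methyltransferase genes Dnmt3a (1.83 ± 0.28, edgeR, adjusted p = 9.38e-05) and Dnmt3b (1.13 ± 0.44, edgeR, adjusted p = 0.0446) were called higher in ES with small folds, and Dnmt3b was not called without ES replicate 1, ES replicate 2 or XEN replicate 2 (edgeR, adjusted p = 0.0586, 0.256 and 0.272). The maintenance enzyme gene Dnmt1 had 65.6 and 58.6 CPM in ES and 64.3 and 60.5 CPM in XEN (-0.01 ± 0.20). In all, 11 of 23 genes of this list were called higher in ES and 4 lower, where 22.6% and 19.5% of all genes were.

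Of the Polycomb genes, 54.8% were called, against 42.1% of all genes tested. Among PRC2 genes, Jarid2, an accessory subunit, was higher in ES with 312 and 307 CPM against 16.5 and 15.2 CPM in XEN (4.29 ± 0.31, edgeR, adjusted p = 1.44e-07), and the core gene Eed was called higher as well (144 and 132 CPM against 36.6 and 33.3 CPM, 1.98 ± 0.20). In PRC1, the CBX subunit gene Cbx7 was higher in ES (55.5 and 64.4 CPM against 7.05 and 9.49 CPM) and Cbx8 in XEN (9.70 and 6.49 CPM against 0.621 and 0.568 CPM). The PCGF subunit genes Bmi1 and Pcgf5 were higher in XEN, with 18.0 and 15.5 CPM and 138 and 216 CPM against 0.968 and 1.21 CPM and 8.11 and 7.17 CPM. Of 31 members tested, 10 were called higher in ES and 7 lower.

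Among other chromatin genes, 8 of 29 were called higher in ES, 5 lower and 16 not called, a share of called genes near the 42.1% of all genes tested. The architectural gene Satb1 had 1.93 and 2.90 CPM in ES against 0.180 and 0.205 CPM in XEN. The BAF ATPase gene Smarca2 (BRM) had 39.7 and 52.4 CPM in XEN and 0.703 and 0.591 CPM in ES, while its paralog Smarca4 (BRG1) was not called (0.13 ± 0.18).

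Germline genes and imprinted genes held large differences in both directions. Of 29 germline genes, many of which are silenced by promoter methylation in somatic cells, 19 were called higher in ES and 7 lower, where 22.6% and 19.5% of all genes were. Their median log2 fold change was 3.68 (3.58 with absent genes at their bound). Most of the genes were low in level: the helicase gene Ddx4 had 4.49 and 5.79 CPM in ES and 1 UMI in XEN. The X-linked homeobox genes Rhox5 (104 and 254 CPM in XEN against 7.03 and 3.97 CPM in ES) and Rhox6 (15.5 and 18.5 CPM against 0.520 and 0.288 CPM) were on the XEN side. Of 29 imprinted genes, 12 were called higher in ES and 10 lower, against the same shares of all genes. The growth inhibitor gene Cdkn1c had 29.9 and 43.4 CPM in ES against 0.369 and 0.250 CPM in XEN, and Peg3, a paternally expressed zinc finger gene, 181 and 171 CPM in XEN against 25 and 14.0 CPM in ES. The maternally expressed noncoding RNAs Meg3 and Mirg of the Dlk1 region were higher in ES, Meg3 with 159 and 159 CPM against 13.1 and 18.7 CPM in XEN. The paternally expressed splicing gene Snrpn had 219 and 210.3 CPM in ES against 22.0 and 24.8 CPM. Paternally expressed genes were thus found on both sides, and allelic origin was not measured.

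Glycolysis genes were called about as often as all genes. Of 25 glycolysis genes, 8 were called higher in ES, 4 lower and 13 not called, the abundant Gapdh among the last (1819 and 2608 CPM and 1415 and 1932 CPM). Pdk1, a pyruvate dehydrogenase kinase gene, had 89.3 and 125 CPM in ES against 5.28 and 5.10 CPM in XEN (4.37 ± 0.44). Pfkp, the platelet isoform of phosphofructokinase, had 20.6 and 30.7 CPM against 0.199 and 0.116 CPM (7.34 ± 0.66). Of 23 genes of serine, threonine and folate metabolism, 5 were called higher in ES and 2 lower, under the 42.1% of all genes. The largest was Tdh, the threonine dehydrogenase of mouse ES cells, with 253 and 301 CPM in ES against 0.360 and 0.304 CPM in XEN (9.70 ± 0.55, edgeR, adjusted p = 3.12e-08).

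Cholesterol synthesis genes tended to the ES side and lysosomal genes to the XEN side. Of 26 genes for cholesterol synthesis and uptake, 13 were called higher in ES and 2 lower, where 22.6% and 19.5% of all genes were. Among them, the isomerase gene Idi1 had 51.9 and 67.4 CPM in ES against 3.60 and 3.22 CPM in XEN. Of 18 lysosomal genes, 13 were called lower in ES and 1 higher, and their summed level was 2814 and 4138 CPM in XEN against 476 and 531 CPM in ES. The cathepsin gene Ctsl had 529 and 738 CPM in XEN and 41.2 and 45.8 CPM in ES, Ctsh 88.9 and 154 CPM against 0.457 and 0.326 CPM and the asparaginyl protease gene Lgmn 276 and 311 CPM against 8.49 and 7.47 CPM. Tfeb, the master regulator of lysosomal genes, was the 1 member higher in ES (12.2 and 17.6 CPM against 8.08 and 5.51 CPM), but not without ES replicate 2 or XEN replicate 2 (edgeR, adjusted p = 0.100 and 0.0828). Solute carriers of nutrient uptake included 9 called higher in ES and 5 lower of 24, the latter near the share of all genes. The arginine transporter gene Slc7a3 had 21.9 and 28.7 CPM in ES against 0.189 and 0.196 CPM in XEN.

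Of the cell cycle regulators, 56.7% were called, against 42.1% of all genes tested. The D-type cyclin genes differed in direction, Ccnd1 with 142 and 134 CPM in ES against 3.51 and 6.70 CPM in XEN (4.76 ± 0.93, edgeR, adjusted p = 7.13e-04) and Ccnd2 with 413 and 736 CPM in XEN against 14.8 and 15.3 CPM in ES (-5.25 ± 0.91, edgeR, adjusted p = 2.79e-04), while Ccnd3 was not called (0.80 ± 0.27). The CDK inhibitor genes Cdkn1a (p21) and Cdkn2a (the p16 and p19ARF locus) were higher in XEN, with 348 and 567 CPM and 109 and 143 CPM against 55.9 and 37.2 CPM and 13.7 and 4.41 CPM in ES. Cdk6 was on the ES side (27.9 and 32.7 CPM against 0.152 and 0.50 CPM), and the mitotic kinase gene Cdk1 was not called (0.27 ± 0.35). Over the list, 9 of 30 genes were called higher in ES and 8 lower.

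Of 20 AP-1 and immediate early genes, 9 were called lower in ES and 2 higher, where 19.5% and 22.6% of all genes were. Atf3, a stress-induced AP-1 partner, had 108 and 209 CPM in XEN and 4.93 and 3.52 CPM in ES (-5.23 ± 0.64, edgeR, adjusted p = 1.55e-05) and Jun 67.3 and 84.3 CPM against 10.0 and 11.1 CPM (-2.85 ± 0.57). The matricellular genes Ctgf and Cyr61, often used as YAP targets, had 507 and 439 CPM and 197 and 288 CPM in XEN against 10.5 and 7.39 CPM and 24.8 and 11.2 CPM in ES. Fos could not be assigned to either side, since it had 2.27 and 30.9 CPM in the ES libraries and 17.5 and 22.2 CPM in XEN, and the ES duplicates differed by more than 10-fold. Of 29 genes for complement, coagulation and protease inhibitors, 14 were called lower in ES and 5 higher, against the same shares of all genes. Tissue factor (F3), which starts coagulation, had 327 and 474 CPM in XEN against 7.62 and 3.77 CPM in ES.

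RNA of the Y chromosome was found almost only in the XEN line. Ddx3y had 24.1 and 17.6 CPM in XEN and 0.0365 and 0 CPM in ES, Eif2s3y 9.44 and 7.09 CPM against 0.0730 and 0.0834 CPM and Uty 3.22 and 3.50 CPM against 0.00913 and 0.0227 CPM, and Kdm5d had 5 and 4 UMIs in XEN and none in ES, and lost its call in each fit with 1 library fewer (edgeR, adjusted p = 0.0628 to 0.124). Xist, which silences the inactive X chromosome, was under 1 CPM in every library (0.210 and 0.152 CPM in ES and 0.521 and 0.205 CPM in XEN). The lines thus differed in Y-linked RNA, and for genes of the sex chromosomes this and the cell type cannot be told apart. Of the 4 genes tested around X inactivation, Jpx and Ftx were called lower in ES.

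Markers of other lineages were mostly low, apart from the neural marker Stmn2 in ES. Their counts of calls stand beside 22.6% of all genes called higher in ES and 19.5% lower. The 10 mesoderm and definitive endoderm markers summed to 7.71 and 9.19 CPM in ES and 2.46 and 2.97 CPM in XEN, with 6 called higher in ES (1 without XEN replicate 1 and 3 without XEN replicate 2). The 9 trophoblast markers tested summed to 15 and 7.69 CPM and 13.4 and 17.1 CPM (5 higher in ES and 3 lower), and the 8 2-cell-like markers to at most 0.420 CPM in any library. Of the 9 neural markers tested, 7 were called higher in ES (3 without XEN replicate 1, and 4 without XEN replicate 2 or without ES replicate 2). They summed to 547 and 451 CPM in ES, most of it Stmn2, and to 18.4 and 21.2 CPM in XEN. Of the 15 fibroblast markers, 3 were called higher in ES (Thy1, Twist2 and Col1a1), with Col1a1 at 4.29 and 0.152 CPM in ES and only 0 and 0.00893 CPM in XEN. The calls of Col1a1 and Twist2 were lost without ES replicate 1 (edgeR, adjusted p = 0.362 and 0.140) or either XEN library (0.123 to 0.146), and that of Twist2 also without ES replicate 2 (0.0518). Both calls were also lost without the small cluster of ES replicate 1 (edgeR, adjusted p = 0.162 for Col1a1 and 0.0914 for Twist2), and that of Col1a1 with the 4 libraries alone (0.0843). Without the small cluster, 1 fibroblast marker was called higher in ES and 1 lower.

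The differences in level also appeared in the share of cells in which a UMI of a gene was found. At a fixed depth this share rises with the level, so it does not show separately how many cells held the RNA. To remove the effect of depth, cells with at least 5000 UMIs were thinned to 5000, which left out 4.94% and 5.29% of the ES cells and 7.61% and 13.6% of the XEN cells. Pou5f1 was then detected in 89.5% and 85.9% of ES cells in replicates 1 and 2 and in 0.334% and 0.363% of XEN cells, where RNA of the uninduced cassette cannot be told apart from it. Without thinning, at median depths of 13140.0 and 13154.0 UMIs in ES and 15016.5 and 18976.0 in XEN, these shares were 95.4% and 96.4% and 0.980% and 1.36%. Dppa5a and Utf1 were found in over 90% of ES cells in each library, whereas Nanog was found in 31.8% and 28.8%, Esrrb in 26.5% and 22.6% and Dppa3 in 8.4% and 6.81% of ES cells, against at most 0.0349% of XEN cells for these 3 genes, which serves as the background. The 95% Wilson intervals of all these shares, which cover counting error only, reached at most 1.34 percentage points to either side. For a gene of low level, a missing UMI at this depth does not show that a cell lacked the RNA.

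In XEN cells, Sparc, Col4a1 and Lama1 were found in nearly every cell (99.9% and 99.8%, 97.9% and 95.7% and 95.8% and 91.2%), and Gata6 and Sox17 in 71.8% and 61.0% and 70.8% and 65.9%. Ttr, although among the genes with the largest difference, was found in only 17.1% and 16.2% of XEN cells, and Afp in 1.47% and 5.37%. Sparc was also found in 41.1% and 43.9% of ES cells, and Fabp3, a fatty acid-binding protein, in 29.1% and 34.5% of ES and 99.2% and 99.9% of XEN cells. Klf4 was found in a larger share of XEN cells (53.6% and 46.1%) than of ES cells (39.3% and 39.1%), in the same order as its level. Without the small cluster, shares in ES replicate 1 were also lower for Cdkn2a (2.40% instead of 3.86%), Atf3 (0.742% instead of 1.14%), the trophoblast factor gene Cdx2 (0.367% instead of 0.689%), Krt8 (4.52% instead of 6.85%) and Krt18 (5.00% instead of 7.61%).

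**Figure D5:**
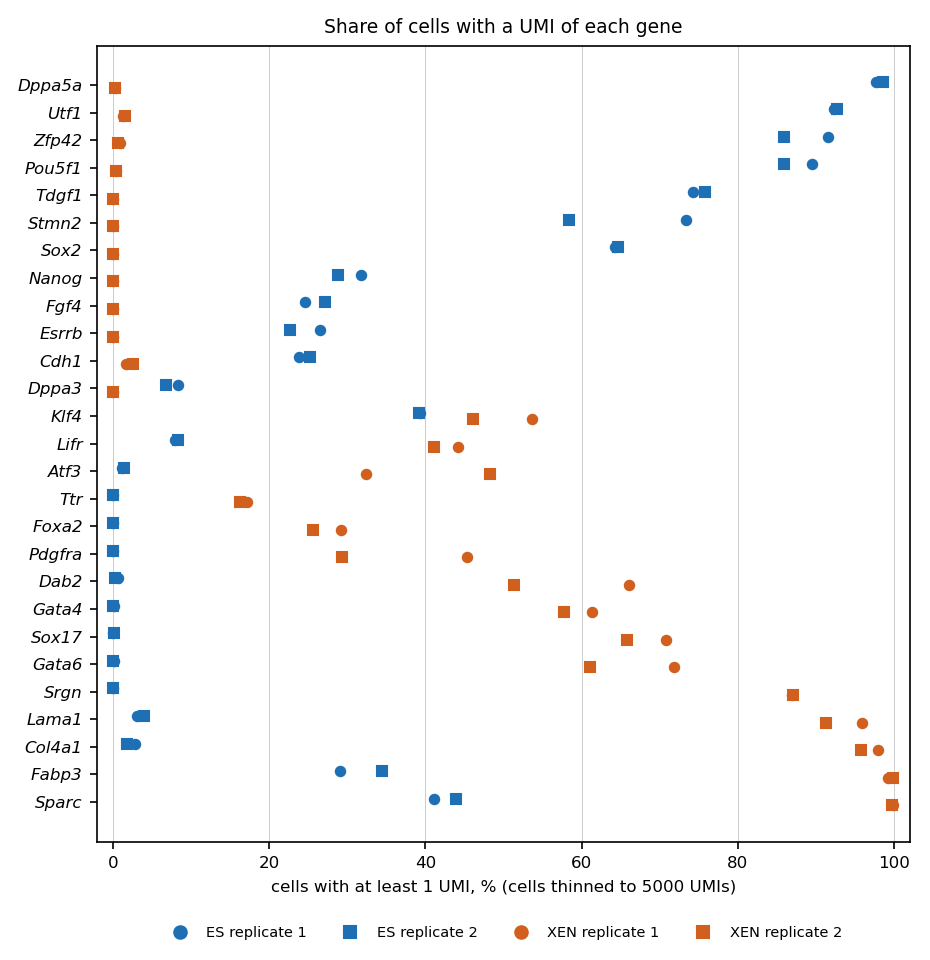
Share of cells (%, x axis) with at least 1 UMI of each gene after thinning to 5000 UMIs per cell, in ES replicates 1 and 2 (blue circles and squares) and XEN replicates 1 and 2 (orange). Pluripotency-associated genes lie near 0% in XEN and endoderm genes near 0% in ES, except Sparc and Fabp3, and Klf4 is found in both.

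Few single cells had more RNA of the other cell type's lists than of their own. No doublet caller was run, so cells of the same library that shared a droplet may be among those counted. The pluripotency lists (transcription factors and effectors) were summed in every cell with at least 5000 UMIs and compared with the PrE transcription factor and basement membrane lists. Only cells in which the other lists outweighed their own were counted, so the counts do not cover cells with smaller amounts of such RNA. In XEN, 1 of 6414 and 5 of 5318 cells had a larger share of UMIs in the pluripotency lists. In ES, 6 of 8757 cells of replicate 2 had a larger share in the endoderm lists, and 142 of 7290 cells of replicate 1, of which 139 belonged to the small cluster described above. The basement membrane genes alone took 1.47% and 1.19% of the UMIs of the median XEN cell and 0.0395% and 0.0476% of the median ES cell.

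Sequence upstream of the start sites was available from RefSeq (GRCm38.p6) for 12480 of the genes tested, and the 250 bases before each start were searched on both strands for the letters AGATAA (the core of GATA sites), ATGCAAAT (the octamer of POU factors) and ACAATG (part of SOX sites). AGATAA was found for 18.3% of the 323 genes called at least 5 log2 units lower in ES, 8.01% of the 849 called at least 5 units higher and 7.81% of all genes tested, and in 9.99% of all 32841 windows of this length. Without the limit on the size of the difference, it was found for 9.35% of all genes called lower and 7.76% of all called higher, and among called genes of at least 50 CPM for 7.38% and 7.24%. The octamer was found for 2.71% of genes at least 5 units higher in ES, 1.55% of those at least 5 units lower and 1.63% of all tested (1.6% of all windows). ACAATG was found for 9.07%, 13.9% and 8.19% (10.7% of all windows). The groups also differed in base composition, since the number of CpG dinucleotides in a gene's window (the highest number where there were several) had a median of 6 in the genes at least 5 units lower in ES, 10 in those at least 5 units higher and 15 in all genes tested. A gene with several windows counted as holding the letters if any window did, and the part of base composition in these shares was not tested.

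The windows of 4 genes with large differences are shown, picked because they hold some of these letters, whereas the windows of other genes with large differences, such as Sox2, Esrrb and Pdgfra, held none of them. Each window runs 5′ to 3′ on the strand of its gene up to the last base before the start, with the letters found in capitals: the octamer (reverse strand) in Zfp42, ACAATG in Nanog, AGATAA in Gkn1 and Gkn2. Gkn1 also holds TGAGTCA (the AP-1 letters) and Gkn2 TATAAA (the TATA letters), in capitals too. These letters were found for 6.81% and 14.9% of the genes called at least 5 log2 units lower in ES, and for 4.35% and 8.81% of all genes tested. Zfp42 lies at chr8:43307010-43307259 on the minus strand, Nanog at chr6:122707239-122707488 on the plus strand, Gkn1 at chr6:87350916-87351165 on the minus strand and Gkn2 at chr6:87373115-87373364 on the plus strand (GRCm38.p6).
Zfp42: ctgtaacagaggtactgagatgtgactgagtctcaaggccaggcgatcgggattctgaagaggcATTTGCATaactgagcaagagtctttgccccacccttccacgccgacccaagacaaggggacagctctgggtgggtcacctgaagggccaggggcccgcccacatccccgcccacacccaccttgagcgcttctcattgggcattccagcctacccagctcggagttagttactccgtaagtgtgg
Nanog: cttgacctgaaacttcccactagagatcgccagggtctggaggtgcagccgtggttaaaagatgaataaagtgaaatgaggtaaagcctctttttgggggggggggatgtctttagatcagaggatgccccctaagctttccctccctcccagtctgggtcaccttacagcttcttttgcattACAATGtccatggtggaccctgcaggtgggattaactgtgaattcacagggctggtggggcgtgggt
Gkn1: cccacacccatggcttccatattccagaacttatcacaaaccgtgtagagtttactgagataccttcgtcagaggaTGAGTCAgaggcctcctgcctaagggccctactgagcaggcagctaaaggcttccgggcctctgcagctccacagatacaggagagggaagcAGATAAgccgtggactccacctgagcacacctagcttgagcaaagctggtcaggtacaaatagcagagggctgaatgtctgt
Gkn2: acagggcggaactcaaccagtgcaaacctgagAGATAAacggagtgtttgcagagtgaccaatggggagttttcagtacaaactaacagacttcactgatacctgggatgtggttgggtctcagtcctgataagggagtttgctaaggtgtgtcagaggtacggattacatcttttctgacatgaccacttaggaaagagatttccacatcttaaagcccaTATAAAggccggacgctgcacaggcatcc
Beside these windows, Zfp42 and Nanog had at least 50 CPM in each ES library and at most 2 CPM in XEN, whereas Gkn1 and Gkn2 had over 40 CPM in each XEN library and under 0.05 CPM in ES. A match of letters is a description of the window, and binding was not measured.

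The difference between the cell types was not spread evenly over the chromosomes. The median log2 fold change of a chromosome's tested genes was between -0.52 (chromosome 19, 560 genes) and 0.52 (chromosome 4, 1038 genes) over the 19 autosomes and X. On chromosome 19, 176 genes were called lower in ES and 78 higher, and on chromosome 4, 129 lower and 317 higher. Of all genes tested, 19.5% were called lower and 22.6% higher. Chromosome X (608 genes) had a median of -0.25, and the 13 mitochondrial genes tested had a median of 0.17. Over genes of at least 10 CPM, the medians of all 19 autosomes and X were lower, with -0.73 on chromosome 19, 0.25 on chromosome 4 and -0.60 on X. Chromosomes 19 and 4 remained the lowest and the highest. Genes are not replicates, so no test was made, and copy number of the lines was not measured.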

How the data were processed

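Single-cell libraries were made with a droplet 3′ kit (10x v2) and processed by the authors with SEQC against mm10, with low-complexity cells and cells of over 20% mitochondrial RNA removed. The deposited values used here were UMI counts per gene and cell, and the authors' cluster numbers came with the deposited cell table. Removal of doublets is not given in the sources used here, and none was done. Counts were summed per library over cells with at least 500 genes. Sums were tested with edgeR 4.0.16 (TMM scaling, filterByExpr, robust quasi-likelihood, Benjamini-Hochberg adjustment) in 1 model of all 20 libraries in 10 groups. The other 16 entered the filter, the scaling and the estimate of spread, and no result of theirs is given; 17063 genes were tested, and 15250 with the 4 libraries alone. A call was an adjusted p under 0.05 and an absolute log2 fold change of at least 1. Log2 fold changes are ES over XEN, and CPM are TMM-scaled. Values after ± are the absolute log2 fold change divided by the square root of the F statistic of the test. They are thus an approximate SE derived from the test. On counts simulated with the same spread for every gene and group, the test recovered 40 of 50 genes with a 4-fold change. In the data the spread of duplicates differed between groups, so this was not a check under that spread. Recovery of smaller changes and false calls are not given here. Named were, by rule, members of the 38 lists and the 15 highest and 15 lowest called genes of at least 50 CPM; Fabp3 and the genes of the last section were added after their values were seen. Members and lists were chosen with earlier results of these data known. Of 877 listed genes, 849 were tested. The 4 libraries held 108205840 to 138204184 UMIs, so 3 UMIs, the floor over a group, stood for about 0.01 CPM. Alternatives were the 4 libraries alone, DESeq2, RLE scaling, no filter, at least 1000 genes per cell, the small ES cluster left out, a replicate block, and each library left out.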

Additional observations from a re-analysis of the deposited data

How the results depend on the processing

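Of 17063 genes, 7189 were called. Calls numbered 7394 with the 4 libraries alone, 7162 with DESeq2 1.42.0, 7188 with RLE scaling, 7133 with no filter, 7177 with at least 1000 genes per cell, 7316 without the small ES cluster and 6085 to 6175 with 1 library left out, where the lone library is assumed to vary like the other groups, and no shared call changed sign. Replicate numbers did not pair the samples (r = -0.00186 between the deviations of ES and XEN over genes), and with a replicate block 7165 genes were called. These counts of list members moved by over 1.5 times, and the causes were not tested. With the 4 libraries alone, 5 integrin, 3 actin-list and 1 AP-1 gene were higher in ES, and 2 fibroblast, 1 mesoderm and 2 neural markers lower. With DESeq2, 5 fibroblast markers were higher and 1 lower. With no filter, 3 actin-list genes and 1 fibroblast marker were higher. Without the small cluster, 1 fibroblast marker was higher and 1 lower. Over the leave-one-out fits, counts of genes higher in ES ranged over 0 to 2 (endocytic receptors and adaptors), 1 to 3 (parietal endoderm markers), 6 to 8 (PDGF, VEGF and other growth factor signalling), 1 to 3 (integrins), 6 to 10 (Polycomb repressive complexes), 4 to 8 (glycolysis and monocarboxylate transport), 2 to 4 (serine, glycine, threonine and one-carbon metabolism), 0 to 1 (lysosomal proteases), 1 to 3 (AP-1 and immediate early genes), 3 to 4 (complement, coagulation and protease inhibitors), 1 to 4 (fibroblast markers), 1 to 6 (mesoderm and definitive endoderm markers), 3 to 5 (trophoblast markers) and 3 to 6 (neural markers). Counts lower in ES ranged over 8 to 14 (actin and mesenchymal cytoskeleton), 2 to 4 (glycolysis and monocarboxylate transport), 1 to 3 (cholesterol synthesis and uptake), 0 to 1 (fibroblast markers) and 1 to 3 (trophoblast markers). The chromosome medians over genes of at least 10 CPM were 0.25 on chromosome 4, -0.73 on 19 and -0.60 on X. Among genes not called, the sign turned for Dnmt1 (0.043 with DESeq2, 0.044 with RLE, 0.026 without the small cluster, and -0.146 to 0.037 with 1 library left out), for Fos (-3.18 to 0.58 with 1 library left out) and for Sall4 (-0.26 to 0.0053 with 1 library left out). Outside the leave-one-out fits, the calls of Amn (no filter and block), Col1a1 (no filter, the 4 libraries alone and without the small cluster), Twist2 (no filter and without the small cluster), Dnmt3b (no filter) and Krt18 (the 4 libraries alone) were lost, that of Apoa1 was gained with the 4 libraries alone, and Col3a1 was called with DESeq2, and shares of cells were lower after thinning to 2000 UMIs, as fewer UMIs were kept. Duplicates were technical, so no value here covers culture or line.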

Other observations

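Among the 15596 tested protein-coding genes taken in genome order, the longest run of neighbours called in 1 direction was 24 genes on chromosome 4, from 145267137 to 147868816 (GRCm38), all higher in ES. It ran from Tnfrsf8 to Miip, and 18 of the 24 genes had names beginning with Zfp, the KRAB-type zinc finger genes of this region among them. Their log2 fold changes were between 1.40 and 8.08 with a median of 4.98, and their summed level was 214 and 196 CPM in ES against 18.3 and 16.3 CPM in XEN. Zfp990 had 29.6 and 21.8 CPM in ES and 0.597 and 0.482 CPM in XEN, and Miip, at the other end, 33.5 and 29.5 CPM against 5.79 and 4.15 CPM. Between 22 and 24 of the 24 genes were called higher in ES under every alternative. The next longest run had 12 genes, and of 23 runs of at least 6 genes, 17 were higher in ES and 6 lower. Zinc finger genes form a large family with related sequences, and how the UMIs were divided among its members was not tested. The run was chosen after its values were seen.

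Rpl29 was apart from the other ribosomal protein genes. It had 2251 and 2306 CPM in ES and 43.6 and 132 CPM in XEN (4.70 ± 0.92, edgeR, adjusted p = 7.47e-04), and was found in 99.9% of cells of each ES library and in 19.3% and 45.3% of XEN cells after thinning. Over 77 ribosomal protein genes with at least 50 CPM, the median log2 fold change was 0.34 and the next highest value was 1.26. Ribosomal protein genes have many processed copies in the genome, and their part in this value was not tested. Other abundant genes outside the lists stood apart as well and were chosen after their values were seen: Chchd10, a mitochondrial protein gene, had 1725 and 1713 CPM in ES against 38.9 and 41.6 CPM in XEN, and the metallothionein gene Mt2 1319.8 and 1453 CPM against 57.5 and 225 CPM.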
